A study of Mus musculus with 6 samples.

Results

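The 10 genes described here defend cells against oxidants and against ferroptosis, the iron-dependent form of cell death driven by peroxidized lipids: Sod2, Txnrd1, Nqo1, Gclm, Gclc, Slc7a11, Srxn1, Prdx1, Gpx1 and Gpx4. They were found by gene symbol, 10 of the 32285 gene rows present in each of 6 single-cell RNA libraries. The libraries came from mice bearing SB28 brain tumors, a mouse glioma line of which 10000 cells had been injected 18 days earlier. In 2 libraries neutrophils (CD45+ CD11b+ Ly6G-high, Ly6C-low or negative) had been sorted from the tumor, in 2 they had been sorted from the blood of tumor-bearing mice, and 2 held CD45+ cells of the tumor, the marker of blood-derived cells and microglia. All groups carried a tumor, no tumor-free group was analysed here, and the labels give neither strain, age, genotype nor whether the 2 samples of a group came from separate mice or pools, so p-values reflect only how these samples vary, and that variation may be technical. A cell counted as a neutrophil when S100a8 and S100a9 together made up at least 0.5% of its unique molecular identifiers (UMIs, the counted RNA molecules).

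These genes form connected layers. Superoxide is turned into hydrogen peroxide in mitochondria by Sod2. Slc7a11, the transport subunit of the cystine/glutamate antiporter xCT, supplies cysteine for glutathione, whose first and rate-limiting step is carried out by the catalytic subunit Gclc with its modifier Gclm. Gpx1 uses glutathione to reduce hydrogen peroxide, and Gpx4 uses it to reduce lipid peroxides in membranes, which makes it the central brake on ferroptosis. A parallel route runs through the peroxidase Prdx1, Srxn1, which restores overoxidized peroxiredoxins, and Txnrd1, which keeps thioredoxin reduced. Nqo1 reduces quinones. Slc7a11, Gclc, Gclm, Txnrd1, Srxn1, Prdx1 and Nqo1 are textbook targets of the oxidant-sensing factor NRF2 (gene Nfe2l2), Slc7a11 is also a target of the stress factor ATF4, and Sod2 is a known NF-kB target. Neutrophils make oxidants themselves to kill microbes.

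The sequence before the transcription start is shown for 3 of the genes that were higher in tumor than in blood neutrophils, because known binding letters of stress factors lie there. The windows are the 250 bases before the start in RefSeq for GRCm38.p6, the assembly behind mm10, at chr3:50443614-50443863 on the minus strand for Slc7a11, chr2:152105274-152105523 on the plus strand for Srxn1 and chr4:116685349-116685598 on the plus strand for Prdx1. Capitals mark TGATGNAA (the core of ATF4 and C/EBP composite elements) for Slc7a11, TGAGTCAGC (an NF-E2 type element) for Srxn1 and TGACNNNGC (the antioxidant response element core) for Prdx1, each read 5′ to 3′ on either strand.
Slc7a11: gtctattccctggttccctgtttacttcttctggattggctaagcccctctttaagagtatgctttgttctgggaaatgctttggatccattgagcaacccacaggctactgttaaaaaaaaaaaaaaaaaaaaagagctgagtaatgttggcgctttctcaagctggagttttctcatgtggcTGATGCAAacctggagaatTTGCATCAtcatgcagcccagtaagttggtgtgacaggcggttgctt
Srxn1: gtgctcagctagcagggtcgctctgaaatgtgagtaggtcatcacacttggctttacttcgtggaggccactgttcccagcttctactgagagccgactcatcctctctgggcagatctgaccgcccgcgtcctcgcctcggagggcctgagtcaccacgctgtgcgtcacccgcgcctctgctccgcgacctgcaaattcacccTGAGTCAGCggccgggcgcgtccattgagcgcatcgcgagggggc
Prdx1: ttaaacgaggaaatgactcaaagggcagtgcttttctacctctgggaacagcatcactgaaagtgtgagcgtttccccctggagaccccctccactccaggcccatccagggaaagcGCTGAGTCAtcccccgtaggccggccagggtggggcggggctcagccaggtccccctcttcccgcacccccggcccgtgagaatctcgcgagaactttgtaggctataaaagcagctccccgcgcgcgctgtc
Slc7a11 held TGATGNAA at 66 to 59 bases before the start and, on the other strand, at 47 to 40 bases before it, and these letters occurred in 3.45% of 32851 windows of the same length. TGACNNNGC occurred in 10.2% of those windows, among them the windows of Gclm, Prdx1 and 1 of the 3 windows of Txnrd1. The Srxn1 letters, 45 to 37 bases before the start, were chosen after its sequence had been seen and occurred in 0.347% of windows. No window was given for Gclc. The matches are descriptions of the letters and were not tested for binding.

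All 10 genes are protein-coding. In the GRCm38 annotation Sod2 (ENSMUSG00000006818) lies at chr17:13006846-13040063, Txnrd1 (ENSMUSG00000020250) at chr10:82833951-82897712, Gclm (ENSMUSG00000028124) at chr3:122245557-122270732, Gclc (ENSMUSG00000032350) at chr9:77754535-77794485 and Slc7a11 (ENSMUSG00000027737) at chr3:49892526-50443614. Srxn1 (ENSMUSG00000032802) lies at chr2:152105516-152111376, Prdx1 (ENSMUSG00000028691) at chr4:116685544-116700822, Gpx1 (ENSMUSG00000063856) at chr9:108338903-108340343, Gpx4 (ENSMUSG00000075706) at chr10:80047166-80056439 and Nqo1 (ENSMUSG00000003849) at chr8:107388225-107403206. Txnrd1, Gclm and Slc7a11 overlap other counted genes. The largest of these, Gm38560 antisense to Txnrd1, had 11.7 and 7.50 CPM in tumor neutrophils, small beside the Txnrd1 level given below.

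The rule took 3347 of 4003 and 5548 of 6235 cells of the sorted tumor libraries, 2951 of 3037 and 5006 of 5084 cells of the sorted blood libraries, and 613 of 8652 and 809 of 8107 cells of the CD45+ libraries. Their summed UMIs ranged from 1384566 in the first CD45+ library to 24386241 in the second tumor sort. The label fitted the neutrophil markers, taken as 10 genes other than S100a8 and S100a9, which were also left out of the total. The 10 genes summed to 18240 and 21625 CPM (counts of UMIs scaled to a common total per class and library) in tumor neutrophils. Their sums were 32204 and 34453 in blood neutrophils and 14058.5 and 15632 in CD45+ neutrophils, against 1019.9 and 1015 in the other CD45+ cells. Ly6g, the sort marker, stood at 18.4 and 18.7 CPM in tumor neutrophils and 85.3 and 82.1 in blood neutrophils. Macrophage markers were counted too: all 12 had UMIs in every one of these classes, and they summed to 5360 and 4162 CPM in tumor neutrophils, 406 and 518 in blood neutrophils, 9323 and 13816 in CD45+ neutrophils and 21699 and 23984 in the other CD45+ cells. Microglia markers summed to 1260 and 1519 CPM in CD45+ neutrophils, more than the 780 and 934 in the other CD45+ cells. Neutrophil-like clusters held 93.28% and 93.66% of the tumor neutrophils, 77.97% and 76.97% of the blood neutrophils and 79.77% and 81.95% of the CD45+ neutrophils. The rest lay in clusters with another name or none. The first CD45+ library and the second tumor sort shared 162 cell barcodes, 2.45% of the smaller library against 0.096% to 0.395% for the other pairs, and 54 of the 613 CD45+ neutrophils and 69 of the 5548 tumor neutrophils carried one. Over the 161 shared barcodes passing the cell filter, neutrophils or not, the median was 740 UMIs in the CD45+ library. In the tumor sort it was 27899, against 3872 over all its neutrophils, so these cells weigh more in its sums than their number. Replicate libraries differed by more than sampling noise, with a chi-square of 10.0 to 22.5 per degree of freedom over genes in the 3 neutrophil groups.

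Between tumor and blood neutrophils the 10 genes split. Slc7a11, Gclc, Sod2, Txnrd1, Srxn1 and Prdx1 were higher in tumor neutrophils, by 4.65-fold for Gclc up to 13.6-fold for Sod2, while both glutathione peroxidases, Gpx1 and Gpx4, were lower. Gclm did not pass the test and Nqo1 had too few UMIs to be tested. Of 9 members that passed the filter on low counts, 6 were called higher and 2 lower at a Benjamini-Hochberg adjusted p under 0.05 in edgeR's quasi-likelihood test on counts summed per library. Over all 13570 genes tested, 33.2% were called higher and 30.8% lower, 64.0% in all, so a call alone was common in this comparison. The median log2 fold change was 2.56 over the 9 members and 0.02 over all genes. The members were chosen with earlier results of these data known, so contrasts of members with all genes are descriptions. Levels below are CPM over all UMIs in the cells of a class, and fold changes come from the fit with its own scaling between libraries.

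**Figure D1:**
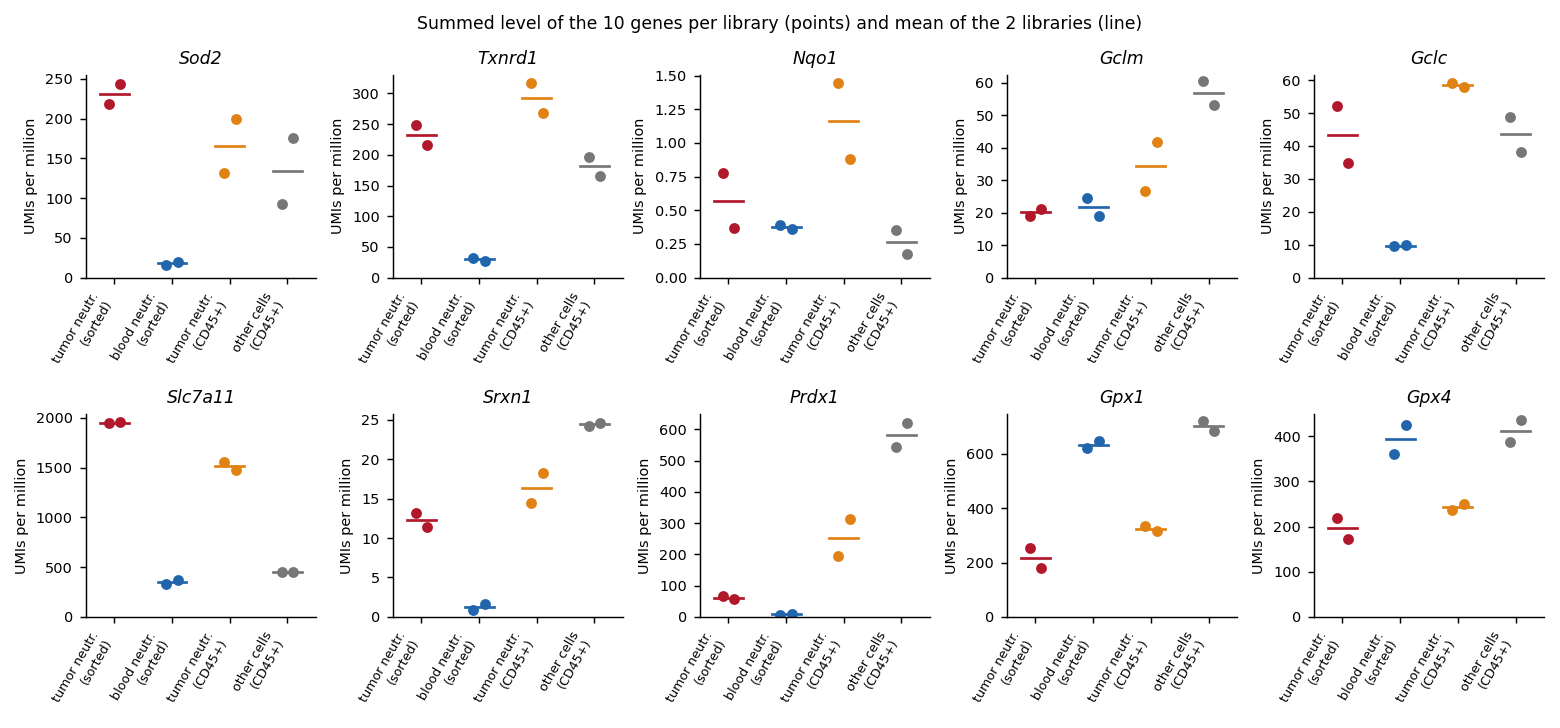
Level of each of the 10 genes in CPM (vertical axis, starting at 0) in sorted tumor neutrophils, sorted blood neutrophils, neutrophils of the CD45+ tumor libraries and the other cells of those libraries; points are libraries and lines the mean of 2. Slc7a11 stood at 1942 and 1958 in tumor neutrophils against 328 and 366 in blood neutrophils, whereas Gpx1 stood at 253 and 181 against 621 and 646.

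The cystine transporter Slc7a11 had 1942 and 1958 CPM in tumor neutrophils, against 328 and 366 in blood neutrophils. Both tumor libraries lay far above both blood libraries, and the replicates of each tissue lay close together. Its log2 fold change was 2.56 ± 0.16 (SE, n = 2 libraries each, edgeR adjusted p = 1.09e-05), or 5.89-fold. Gclc, the catalytic subunit of glutamate-cysteine ligase, had 52.0 and 34.8 CPM in tumor neutrophils, against 9.48 and 9.82 in blood neutrophils. The groups did not overlap, and the 2 tumor libraries differed from each other more than the blood libraries did. The log2 fold change of Gclc was 2.22 ± 0.18 (edgeR adjusted p = 3.24e-05). Gclm, the modifier subunit of the same enzyme, had 18.9 and 21.2 CPM in tumor neutrophils and 24.4 and 18.9 in blood neutrophils. Its groups overlapped, with a log2 fold change of -0.03 ± 0.19 (edgeR adjusted p = 0.884).

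In the thioredoxin and peroxiredoxin route all 3 members were higher. Txnrd1 had 249 and 216 CPM in tumor neutrophils, against 31.9 and 27.8 in blood neutrophils, with no overlap. The log2 fold change of Txnrd1 was 3.02 ± 0.14 (edgeR adjusted p = 3.71e-06), or 8.14-fold. Srxn1, low in both tissues, had 13.2 and 11.4 CPM in tumor neutrophils, against 0.933 and 1.59 in blood neutrophils. Both tumor libraries again lay above both blood libraries, and the log2 fold change of Srxn1 was 3.29 ± 0.26 (edgeR adjusted p = 3.34e-05). Prdx1 had 65.7 and 57.8 CPM in tumor neutrophils, against 7.62 and 10.2 in blood neutrophils. Its groups did not overlap, with a log2 fold change of 2.84 ± 0.16 (edgeR adjusted p = 7.43e-06). In blood 38.8% and 46.2% of the Prdx1 UMIs came from 1 and 197 cells of a monocyte-like cluster inside the rule, and in neutrophil-like clusters alone the log2 fold change was 3.32.

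Macrophage markers moved with the same contrast, and of the members Prdx1 was the lowest in neutrophils relative to the other cells of the tumor sorts. Of those other cells 61.0% and 50.7% lay in neutrophil-like clusters, so they are not macrophages alone. In tumor neutrophils Prdx1 stood at 17.2% and 14.4% of its level in the other cells of the same tumor sorts, where the macrophage gene C1qa stood at 26.2% and 15.1% and Apoe at 19.0% and 14.2%. Slc7a11 stood at 287% and 308% of its level in those cells, Txnrd1 at 146% and 137% and Sod2 at 122% and 114%. Gclc, at 84.0% and 79.0%, and Srxn1, at 73.4% and 56.5%, were lower in the neutrophils than in those cells. Neutrophils that held 2 or more UMIs of C1qa, C1qb, C1qc and Apoe together are called C1q- or Apoe-holding. Where they were left out, neutrophils below that limit were kept. Without the C1q- or Apoe-holding neutrophils the log2 fold change of Prdx1 between tumor and blood was 1.94 (edgeR adjusted p = 0.00101). Slc7a11, Txnrd1 and Sod2 then kept log2 fold changes of 3.02, 3.47 and 4.19. The part of macrophage RNA in the remaining difference of Prdx1, and in the differences of Gclc and Srxn1, was not tested.

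Sod2, the mitochondrial superoxide dismutase, had 218 and 244 CPM in tumor neutrophils, against 15.9 and 19.7 in blood neutrophils. The libraries of the tissues did not overlap, and the log2 fold change of 3.76 ± 0.17 was the largest among the members (edgeR adjusted p = 3.71e-06).

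The glutathione peroxidases went the other way. Gpx1 had 253 and 181 CPM in tumor neutrophils, against 621 and 646 in blood neutrophils, with a log2 fold change of -1.49 ± 0.15 (edgeR adjusted p = 9.18e-05), or 2.81-fold lower. Gpx4 had 220 and 173 CPM in tumor neutrophils, against 362 and 425 in blood neutrophils, with a log2 fold change of -0.94 ± 0.13 (edgeR adjusted p = 0.000533), or 1.92-fold lower. For each gene both tumor libraries lay below both blood libraries. Macrophage-like cells, whose markers were higher in tumor than in blood neutrophils, held 808 and 636 CPM of Gpx1 and 479 and 485 of Gpx4.

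Nqo1 was at the edge of detection everywhere. It had 12 and 9 UMIs in tumor neutrophils, against 5 and 7 in blood neutrophils, that is 0.774 and 0.369 CPM (95% exact Poisson intervals 0.400 to 1.35 and 0.169 to 0.701) against 0.389 and 0.360 (0.126 to 0.907 and 0.145 to 0.742). The intervals cover counting error only, and a difference between the tissues was not detectable at this depth. The highest level of a class in a library was 2.46 CPM, from 3 UMIs, in an unnamed cluster of the second CD45+ library.

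Per cell, the same genes were seen in more or in fewer neutrophils. Each cell was thinned to 1000 UMIs, since libraries differed in depth, and 99 and 184 shallower tumor cells and 130 and 572 shallower blood cells were left out. Slc7a11 was then seen in 64.9% and 64.8% of tumor neutrophils, against 24.1% and 26.6% of blood neutrophils. B or plasma cell-like cells of the CD45+ libraries, a class with little Slc7a11, showed it in 1.02% and 0% (0 of 49 cells), and the shares in tumor and blood neutrophils were well above those. Sod2 was seen in 16.2% and 17.3% of tumor neutrophils, against 1.31% and 2.03% of blood neutrophils, and B or plasma cell-like cells showed it in 2.03% and 2.04%, so a share in blood neutrophils above that of this class was not detectable. Txnrd1 was seen in 19.3% and 16.6% of tumor neutrophils, against 3.12% and 2.41% of blood neutrophils, and B or plasma cell-like cells showed it in 2.54% and 2.04%. These cells come from other libraries than the blood neutrophils, so free RNA in blood was not measured by them. Gpx1 was seen in 15.9% and 12.3% of tumor neutrophils, against 43.4% and 44.4% of blood neutrophils, and Gpx4 in 17.5% and 13.9% of tumor neutrophils, against 29.7% and 33.4% of blood neutrophils. B or plasma cell-like cells showed Gpx1 in 8.12% and 6.12% and Gpx4 in 7.11% and 18.4%, the last from 49 cells. Unthinned, the mean share with Slc7a11 was 82.9% of tumor neutrophils and 51.1% of blood neutrophils, at median depths of 3904 and 3872 UMIs in tumor and 4253 and 3952 in blood neutrophils, and of 2349.5 in the B or plasma cell-like cluster.

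The CD45+ libraries allowed neutrophils to be set against the other immune cells of the same tumor and library. By clusters and markers these neutrophils were a mixed class. C1qa stood in them at 73.9% and 95.8% of its level in the other CD45+ cells, and Apoe at 39.3% and 55.5%. Slc7a11, Txnrd1, Gclc and Sod2 were higher in the neutrophils, and Prdx1, Gpx1, Gpx4 and Gclm were lower. Of 10 members tested, 4 were called higher and 4 lower, in a fit with the library as a block, where 18.9% of 16138 genes were called higher and 22.8% lower (41.7% in all). With 2 libraries these p-values lean on a spread pooled across genes, and without the block 2 members, Slc7a11 and Txnrd1, were called higher and 1, Gpx1, lower. The median log2 fold change was 0.12 over the members and -0.16 over all genes.

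Slc7a11 had 1560 and 1479 CPM in CD45+ neutrophils, against 449 and 455 in the other CD45+ cells. The groups were far apart, with a log2 fold change of 1.97 ± 0.12 (edgeR adjusted p = 1.39e-58), and in the thinned cells 63.2% and 62.2% of neutrophils held it, against 27.6% and 27.0% of the other cells, at unthinned median depths of 1614 and 2648 UMIs in the neutrophils and 6748 and 12131.5 in the other cells. Txnrd1 had 316 and 269 CPM in CD45+ neutrophils, against 197 and 165 in the other cells, a log2 fold change of 0.92 with no overlap. Gclc had 59.2 and 57.9 CPM in CD45+ neutrophils and 48.9 and 38.0 in the other cells, a log2 fold change of 0.69, with 15.9% and 25.4% of the neutrophils' Gclc UMIs in a single cell. That call was lost without C1q- or Apoe-holding neutrophils (0.38, edgeR adjusted p = 0.331) and turned to -0.22 (edgeR adjusted p = 0.677) when S100a8 and S100a9 had to make up 5% of UMIs. Sod2 had 131 and 199 CPM in CD45+ neutrophils and 92.3 and 175 in the other cells. The Sod2 ranges overlapped because the second library was higher in both classes, and within each library the neutrophils were higher, with a log2 fold change of 0.56.

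On the lower side, Prdx1 had 194 and 313 CPM in CD45+ neutrophils, against 544 and 619 in the other cells, with a log2 fold change of -0.98. A single cell held 17.9% and 18.8% of the Prdx1 UMIs of CD45+ neutrophils. Without neutrophils holding 2 or more C1q and Apoe UMIs the log2 fold change was -3.48, and in cells of neutrophil-like clusters -3.18. Gpx1 had 334 and 316 CPM in CD45+ neutrophils against 720 and 685 in the other cells, and Gpx4 had 236 and 249 against 388 and 436, with log2 fold changes of -0.89 and -0.54. Gclm had 26.7 and 41.8 CPM in CD45+ neutrophils, against 60.4 and 53.1 in the other cells, a log2 fold change of -0.43 (edgeR adjusted p = 0.0367) that was -1.97 without the C1q- or Apoe-holding neutrophils and was not called under DESeq2 (adjusted p = 0.298) or edgeR's RLE scaling (adjusted p = 0.102). Srxn1 had 14.4 and 18.2 CPM in CD45+ neutrophils, against 24.2 and 24.6 in the other cells, and did not pass the test (-0.31, edgeR adjusted p = 0.279), although it did without those neutrophils (-1.46, edgeR adjusted p = 0.0217). Nqo1 had only 2 and 3 UMIs in CD45+ neutrophils and 25 and 19 in the far larger sums of the other cells. That is 1.44 and 0.882 CPM in the neutrophils against 0.355 and 0.173, a log2 fold change of 2.42. This difference, in the higher direction, did not pass the test (edgeR adjusted p = 0.0652).

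Among 9 cell classes of the study each gene had its own order, taken from the mean of 2 libraries and given as a description. The 9 classes leave out unnamed clusters and classes of under 50 cells over the 2 libraries together. They also leave out the 72 and 58 cells of the CD45+ libraries that were neutrophil-like by cluster but outside the rule. The macrophage-like and monocyte-like names are not stable: at a clustering resolution of 0.5 no cluster was named macrophage-like, and a monocyte-like cluster of 1097 cells was led by Mmp12, Hspa1b and Hspa1a. Slc7a11 was highest in sorted tumor neutrophils (1950 ± 10.9 CPM, SD, n = 2) and then CD45+ neutrophils (1519 ± 57.5). It was lower in monocyte-like cells (571 ± 92.4) and macrophage-like cells (514 ± 62.3), whose ranges overlapped, then in blood neutrophils (347 ± 27.1) and dendritic cell-like cells (337 ± 17.7), which also overlapped, and lowest in B or plasma cell-like cells (17.9 ± 1.27). The neutrophil-like cells outside the rule held 2318 and 1860 CPM of Slc7a11 and 285 and 481 CPM of Sod2. Within the 9 classes Sod2 was highest in sorted tumor neutrophils (231 ± 18.6) and lowest in blood neutrophils (17.8 ± 2.69). CD45+ neutrophils, monocyte-like and macrophage-like cells stood between them and overlapped in Sod2. Txnrd1 was highest in CD45+ neutrophils (293 ± 33.6), but the ranges of the 6 leading classes overlapped from one to the next, and blood neutrophils (29.8 ± 2.87) overlapped B or plasma cell-like cells at the bottom.

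Of the remaining genes apart from Nqo1, macrophage-like or monocyte-like cells led for 5 and microglia-like cells for 1. Within the 9 classes Prdx1 was highest in macrophage-like cells (781 ± 170) and lowest in blood neutrophils (8.93 ± 1.85), with sorted tumor neutrophils (61.7 ± 5.61) second lowest. Gclm (87.3 ± 8.90) and Srxn1 (32.1 ± 5.57) were also highest in macrophage-like cells, as was Gpx4 (482 ± 4.56). An unnamed cluster with microglial and stromal markers, of 247 and 252 cells, lay higher on average in Prdx1 (1274 and 1025 CPM), Gclm (119 and 80.2) and Gpx4 (459 and 670). Gpx1 was highest in monocyte-like cells (738 ± 23.0), overlapping macrophage-like cells, followed by blood neutrophils (634 ± 17.7), while an unnamed cluster led by Ccl17 and H2-Eb1 held 776 and 784 CPM. For both peroxidases sorted tumor neutrophils were second lowest (217 ± 51.0 for Gpx1, 196 ± 33.4 for Gpx4), above B or plasma cell-like cells, whose range overlapped theirs for Gpx4. Within the 9 classes Gclc was highest in microglia-like cells (75.4 ± 18.7) and lowest in blood neutrophils (9.65 ± 0.239), and most classes between overlapped. Mast cell or basophil-like cells, left out with 19 and 17 cells, held 678 and 83.8 CPM of Gclc.

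**Figure D2:**
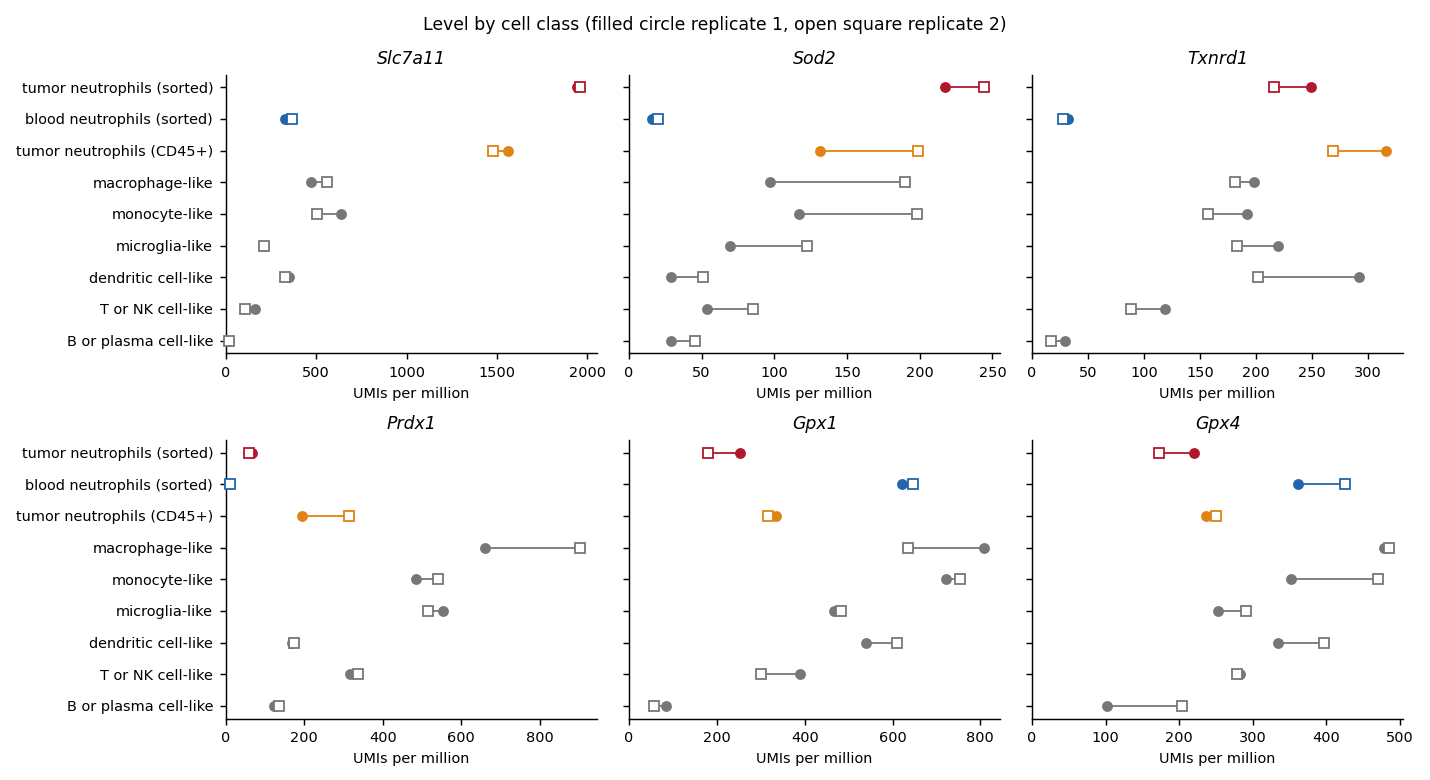
Level of 6 of the genes in CPM (horizontal axis, starting at 0) in 9 cell classes; filled circles are replicate 1, open squares replicate 2, joined by a line. Among these 9 classes, which leave out unnamed clusters, Slc7a11 was highest in both sets of tumor neutrophils, Prdx1 in macrophage-like cells, and Gpx1 and Gpx4 were lower in sorted tumor neutrophils than in blood neutrophils.

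Tumor neutrophils were captured in 2 ways, within the CD45+ cells and by the neutrophil sort. Of 9 members tested 1, Prdx1, was called, where 3.94% of 12495 genes were called higher and 2.18% lower (6.11% in all). Scaling between libraries lowered the CD45+ neutrophils by 0.24 and 0.39 on the log2 scale relative to the levels given here. Prdx1 had 194 and 313 CPM in CD45+ neutrophils, against 65.7 and 57.8 in sorted ones, a log2 fold change of 1.70 ± 0.24 (edgeR adjusted p = 0.0208). Macrophage markers moved with it, at 9323 and 13816 CPM in CD45+ neutrophils against 5360 and 4162 in sorted ones. The call was lost without C1q- or Apoe-holding cells (1.22, edgeR adjusted p = 0.194), in neutrophil-like clusters (0.74, edgeR adjusted p = 0.485), without the cells sharing a barcode (1.90, edgeR adjusted p = 0.0585) and without the second tumor sort (1.67, edgeR adjusted p = 0.0783). It was also lost when S100a8 and S100a9 had to make up 2% or 5% of UMIs (edgeR adjusted p = 0.291 and 0.507). Slc7a11 (-0.72, edgeR adjusted p = 0.0715) and Sod2 (-0.83, edgeR adjusted p = 0.0727) were lower in CD45+ neutrophils without passing the test, and both passed it under DESeq2 and without the filter on low counts. Their size depended on the setting. Over 14 alternatives the log2 fold change ran from -1.14 to -0.05 for Slc7a11 and from -1.20 to -0.31 for Sod2.

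Within the sorted tumor neutrophils, cells of like depth were ranked by summed scores and cut into 3 groups of equal size, and the score-high group was set against the score-low group of the same library. The scores were 16 hypoxia genes such as Vegfa and Bnip3, 14 genes of the integrated and endoplasmic reticulum stress responses such as Atf4 and Trib3, and 13 NF-kB target genes such as Nfkbia and Tnfaip3. Levels in these comparisons are CPM over UMIs outside the score genes, S100a8 and S100a9. In the fits, scaling between libraries raised the score-high group by 0.25 to 0.37 on the log2 scale relative to these levels. Each group held 1107 and 1840 cells.

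Neutrophils with a high hypoxia score held more Gclc and Sod2 and less Gpx1, Gpx4 and Txnrd1. Of 9 members tested, 3 were called higher and 3 lower, where 20.1% of 11203 genes were called higher and 16.5% lower (36.6% in all). Gclc had 86.8 and 48.4 CPM in the score-high group, against 36.9 and 29.5 in the score-low group, a log2 fold change of 1.28 ± 0.16 (edgeR adjusted p = 5.88e-05). Gpx1 had 133 and 93.4 in the score-high group, against 366 and 290 in the score-low group, a log2 fold change of -1.24 ± 0.12. Gpx4 had 134 and 89.2 in the score-high group, against 306 and 262 in the score-low group, a log2 fold change of -1.07 ± 0.13. In all 3 genes the groups did not overlap. Txnrd1 had 192 and 152 in the score-high group, against 319 and 312 in the score-low group, with a log2 fold change of -0.58. Sod2 had 262 and 264 against 202 and 241 (0.56), and Prdx1 67.1 and 61.5 against 54.1 and 61.3 (0.46, edgeR adjusted p = 0.0272), a call lost in 6 of 8 alternatives. Slc7a11 had 1777 and 1541 in the score-high group, against 2278 and 2396 in the score-low group, and did not pass the test (-0.19, edgeR adjusted p = 0.275). Neutrophil markers outside the rule moved with this score, at 12424 and 14047 CPM in the score-high group against 24144 and 27252 in the score-low group, as did macrophage markers, at 4336 and 1934 against 5700.04 and 6250, and monocyte markers, at 1073 and 1117 against 2569 and 2779. Their part was not tested.

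The stress score also went with more Gclc and with less Gpx1 and Gpx4. Of 9 members tested, 2 were called higher and 4 lower, where 23.3% of 11199 genes were called higher and 20.3% lower (43.5% in all). Gclc had 99.6 and 60.2 CPM in the score-high group, against 38.4 and 23.3 in the score-low group (log2 fold change 1.64 ± 0.13). Gpx1 had 132 and 104 in the score-high group against 405 and 282 in the score-low group (-1.26 ± 0.09), and Gpx4 had 122 and 99.6 against 333 and 270 (-1.18 ± 0.09). The libraries of these groups did not overlap for any of them. Gclm had 15.9 and 17.9 in the score-high group, against 26.9 and 32.1 in the score-low group (-0.54, edgeR adjusted p = 0.0121), a call lost in 3 of 8 alternatives. Slc7a11 had 1709 and 1597 against 2345 and 2391 (-0.25, edgeR adjusted p = 0.00604), a call lost in 6 of 8 alternatives. Sod2 had 220 and 259 in the score-high group and 239 and 251 in the score-low group, which overlapped, and its log2 fold change of 0.24 (edgeR adjusted p = 0.0317) is no larger than the shift from scaling and was not called in 5 of 8 alternatives. Neutrophil markers stood at 13370 and 15106 CPM in the stress-high group, against 23251 and 29383 in the stress-low group, and monocyte markers at 807 and 945 against 2944 and 3228. Their part was not tested. The 3 scores split the same cells, so the splits are not independent.

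The NF-kB score went with other members. Of 9 members tested, 3 were called higher and 1 lower, where 10.6% of 11211 genes were called higher and 7.68% lower (18.3% in all). Sod2 had 381 and 456 CPM in the score-high group, against 113 and 106 in the score-low group, a log2 fold change of 2.22 ± 0.10 (edgeR adjusted p = 3.93e-10). Slc7a11 had 2740 and 3025 in the score-high group, against 1309 and 1318 in the score-low group, a log2 fold change of 1.42 ± 0.07 (edgeR adjusted p = 6.42e-10). Both groups were tight and far apart for these genes, and both calls held in all 8 alternatives. Txnrd1 had 289 and 257 in the score-high group, against 216 and 207 in the score-low group, with a log2 fold change of 0.65 that missed the threshold without the block (edgeR adjusted p = 0.0560). Gpx1 (-0.19, edgeR adjusted p = 0.137), Gpx4 (0.20, edgeR adjusted p = 0.125) and Gclc (-0.03, edgeR adjusted p = 0.925) did not pass. Prdx1 had 47.2 and 27.0 in the score-high group, against 95.7 and 95.1 in the score-low group (-1.14). Macrophage markers differed in the same direction, at 3942 and 1632 CPM in the score-high group against 6677 and 5991 in the score-low group, and without C1q- or Apoe-holding cells the Prdx1 value was -0.32 (edgeR adjusted p = 0.372).

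Blood neutrophils were split by 11 granule and immaturity genes such as Ltf, Camp and Ngp. Of 8 members tested none was called higher (0) and 2 were lower, where 3.87% of 10065 genes were called higher and 5.5% lower (9.38% in all). Slc7a11 had 317 and 295 CPM in the granule-high group, against 406 and 535 in the granule-low group, with a log2 fold change of -0.61 ± 0.12 (edgeR adjusted p = 6.61e-05). The second library carried more of it, -0.83 without replicate 1 against -0.37 without replicate 2, and the call was lost under DESeq2 (adjusted p = 0.0598) and without the block (edgeR adjusted p = 0.0657). Prdx1 had 6.03 and 3.97 in the granule-high group, against 17.2 and 22.0 in the granule-low group (-2.01 ± 0.31), in libraries where 38.8% and 46.2% of Prdx1 UMIs came from the monocyte-like cluster named above. That difference was -0.05 where S100a8 and S100a9 made up 5% of UMIs and missed the threshold without C1q- or Apoe-holding cells (-1.26, edgeR adjusted p = 0.0728). Macrophage markers stood at 425 and 457 CPM in the granule-high group and 610 and 736 in the granule-low group. Gpx4 had 499 in both granule-high libraries and 368 and 472 in the granule-low ones, which did not pass (edgeR adjusted p = 0.203).

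**Figure D3:**
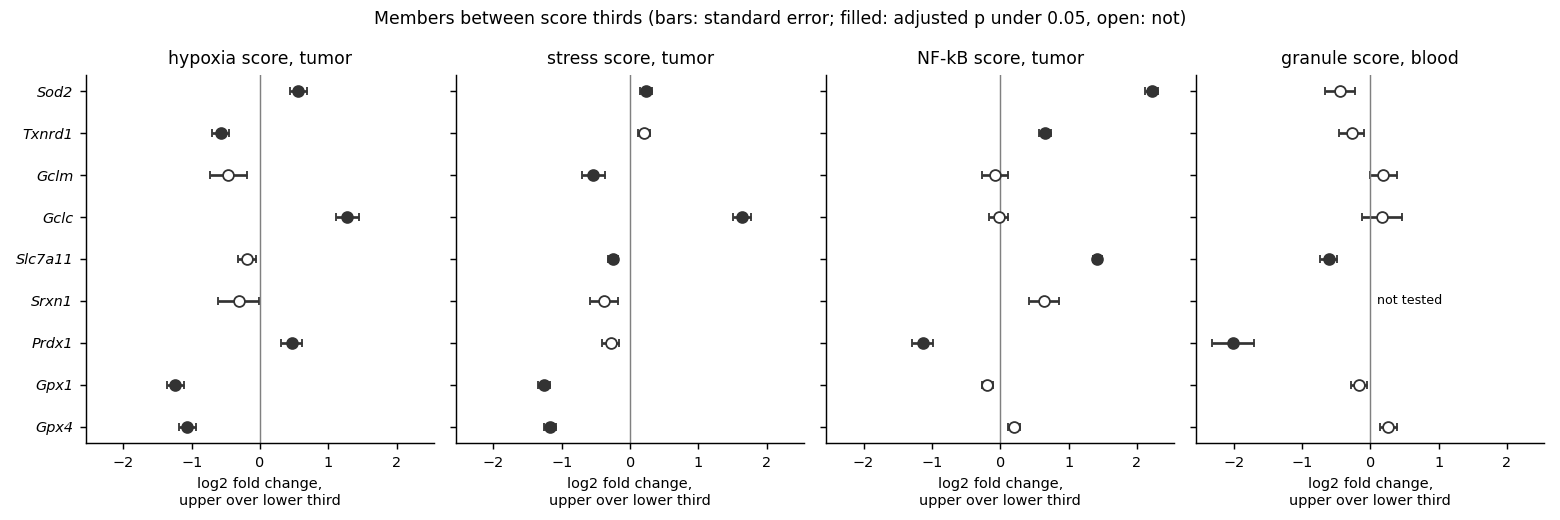
Log2 fold change of 9 members between score-high and score-low cells by each score, in tumor neutrophils (first 3 panels) and blood neutrophils (last panel); bars are standard errors, filled points have an adjusted p under 0.05. Gpx1 (-1.24 and -1.26) and Gpx4 (-1.07 and -1.18) lie low in the hypoxia and stress panels, while Sod2 (2.22) and Slc7a11 (1.42) lead the NF-kB panel.

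The wider pathway was described by 90 other genes in 8 lists, also chosen with earlier results of these data known. Between tumor and blood neutrophils 80 were tested, 38 were higher, 23 lower and 19 not called, beside 33.2% higher and 30.8% lower over all genes, with a median log2 fold change of 0.48 against 0.02 over all genes. Superoxide and peroxide removal had 5 higher and 0 lower of 8 tested, and ferroptosis-protecting genes 7 higher and 1 lower of 11. Ferroptosis-promoting genes had 5 higher and 3 lower of 10, the glutathione list 7 higher and 8 lower of 16, and the thioredoxin list 3 higher and 4 lower of 9. NRF2 target enzymes were evenly split, 5 higher and 5 lower of 12, NRF2 regulators had 4 higher and 1 lower of 8, and selenoprotein synthesis 2 higher and 1 lower of 6.

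Nfe2l2 itself, the gene of NRF2, had 648 and 570 CPM in tumor neutrophils, against 288 and 274 in blood neutrophils, a log2 fold change of 1.17 ± 0.13 (edgeR adjusted p = 0.000144). Keap1, which marks NRF2 for destruction, had 8.45 and 4.84 against 8.86 and 8.74 and did not pass (-0.37, edgeR adjusted p = 0.217), and Bach1, a repressor at NRF2 sites, was lower (-0.47, edgeR adjusted p = 0.0140). Its small Maf partner Maff was higher, with 175 and 167 CPM in tumor neutrophils against 8.32 and 7.87 in blood neutrophils (log2 fold change 4.47 ± 0.14). Sqstm1, a cargo adaptor of autophagy that binds KEAP1, had 420 and 342 against 98.6 and 93.5 (2.04). Hmox1, which breaks down heme, had 318 and 350 in tumor neutrophils against 65.8 and 52.7 in blood neutrophils (2.56). Slc3a2, the partner chain of Slc7a11 in xCT, had 220 and 201 against 41.5 and 37.3 (2.48), and Abcc1, an exporter of glutathione conjugates, had 27.3 and 23.6 against 3.26 and 2.37 (3.26).

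Of the 8 pathway genes with the largest falls, 4 encode enzymes of the pentose phosphate pathway, whose oxidative branch makes the NADPH that both the glutathione and the thioredoxin routes consume. G6pdx, its first enzyme, had 13.6 and 11.4 CPM in tumor neutrophils, against 79.7 and 71.2 in blood neutrophils (log2 fold change -2.53 ± 0.14, edgeR adjusted p = 7.70e-06). Pgd had 80.4 and 58.4 against 276 and 282 (-1.95), Taldo1 319 and 274 against 1393 and 1341 (-2.15), and Tkt 52.2 and 44.4 against 176 and 172 (-1.79). In each of these 4 genes the tumor libraries lay below the blood libraries. Ggt5, a gamma-glutamyltransferase (-2.36), and Mgst2, a microsomal glutathione transferase (-2.13), were lower as well.

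Iron genes moved in both directions. Fth1, the ferritin heavy chain that stores iron, had 30147 and 36037 CPM in tumor neutrophils, against 5686 and 5377 in blood neutrophils (log2 fold change 2.65 ± 0.29, edgeR adjusted p = 0.000156). Tfrc, the transferrin receptor that brings iron in, had 43.9 and 53.0 against 5.13 and 5.66 (3.24), and Slc40a1, the iron exporter ferroportin, had 104 and 102 against 510 and 511 (-2.24). Gch1, which starts the synthesis of the lipid antioxidant tetrahydrobiopterin, had 156 and 167 in tumor neutrophils, against 23.2 and 16.1 in blood neutrophils (3.11). Alox15, a lipoxygenase that peroxidizes membrane lipids, was called lower, with 1 and 0 UMIs in tumor neutrophils against 156 and 180 in blood neutrophils, but 154 and 180 of the blood UMIs came from 1 cell in each library. Both cells lay in a monocyte-like cluster led by Retnla and Lyz1, so the call is no measurement of blood neutrophils, and it stands among the 3 lower ferroptosis-promoting genes.

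**Figure D4:**
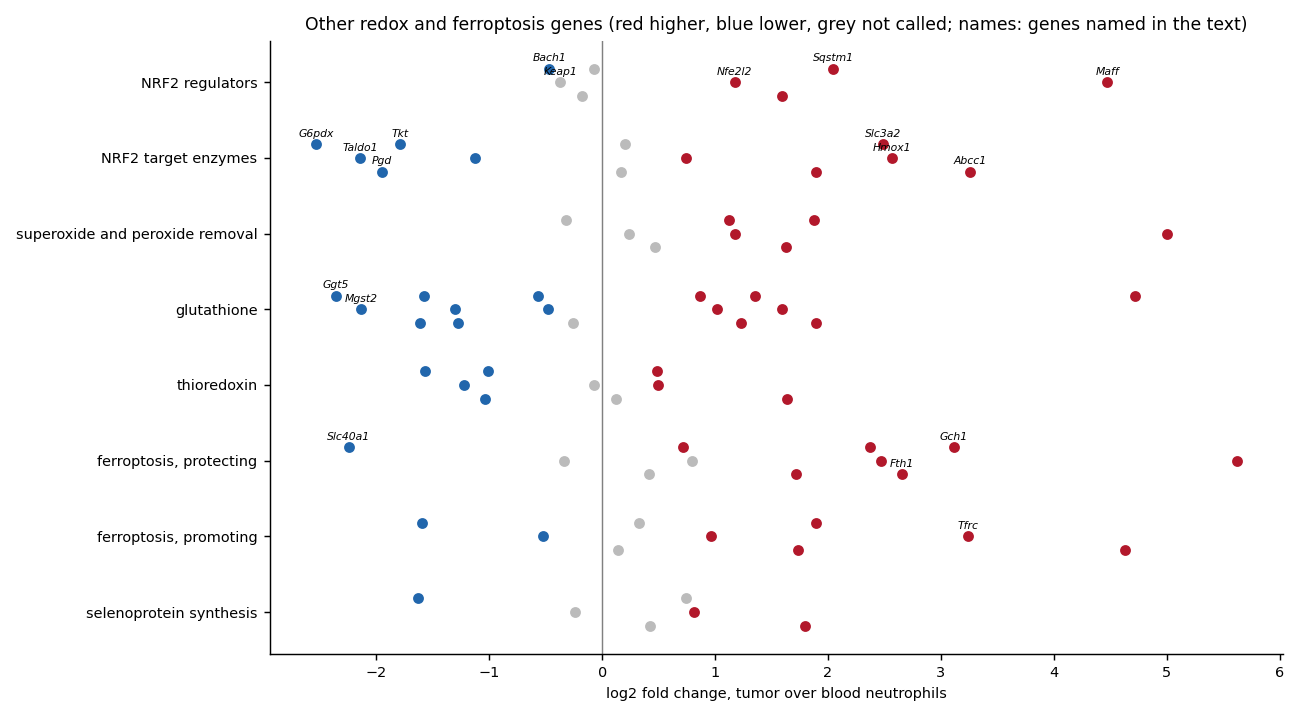
Log2 fold change between tumor and blood neutrophils (horizontal axis) of the tested genes of the 8 lists other than Alox15, which had 1 and 0 UMIs in tumor neutrophils; red points are higher, blue lower and grey not called at an adjusted p of 0.05. Maff (4.47) lies far right among NRF2 regulators, and G6pdx (-2.53), Taldo1, Pgd and Tkt lie left among NRF2 target enzymes.

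Genes with a pattern most like each member were sought over 17 sums of a library and class with at least 100 cells, by Pearson's r of log2(CPM + 1) among 6276 genes of at least 20 CPM. The sums share libraries and depth, and the values are descriptions. Slc7a11 was closest to Il1rn (r = 0.99), the interleukin-1 receptor antagonist, and Ehd1 (0.96). Sod2 was closest to Ssr3 and Hilpda (0.95 each), Txnrd1 to Basp1 (0.98) and Creb5 (0.94), and Gclc to B4galt1 and Rasgef1b (0.94 each). Prdx1 was closest to Ppp1r14b and Lman1 (0.99 each), Srxn1 to Mfsd1 (0.97) and Ifi211 (0.96), and Gclm to Slc48a1 and Psap (0.92 each). Gpx1 was closest to Serf2 and Arpc2 (0.97 each), while Gpx4 was closest to Arpc2 (0.97) and to Gpx1 (0.96), the only pairing within the 10 genes. Nqo1, at a mean of 0.384 CPM over the sums, was too low for its likeness to be read.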

How the data were processed

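Sorted neutrophils of tumor and blood and CD45+ tumor cells were profiled by 10x Chromium 3′ single-cell RNA sequencing. The authors deposited UMI counts per gene and cell barcode; the submitters' processing notes name Cell Ranger 7.1.0 and the build mm10, while annotation version and strand setting are not given in the sources used here. Total counts per library ranged from 13945799 to 129422458, over 3121 to 9418 barcodes. Cells with under 200 genes or over 10% mitochondrial counts were dropped. Scrublet's own threshold marked at most 0.128% of cells, so removal instead took the top-scoring cells, 0.8% per 1000 cells. Cells were clustered with scanpy 1.11.5 (2000 variable genes, 30 components, Leiden resolution 1) without the members, pathway and score genes, and clusters were named from fixed markers by a naming rule set after the data were seen.

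Counts were summed per library and class and tested with edgeR 4.0.16 (TMM scaling, its filter on low counts, quasi-likelihood test, Benjamini-Hochberg over all genes tested, threshold 0.05). S100a8, S100a9 and, for the score groups, the score genes were left out of the sums. Comparisons within a library (CD45+ neutrophils against other cells, score-high against score-low cells, cut within 20 bins of depth) had the library as a block, since both sides come from 1 sample. Replicate numbers were not taken to pair tumor and blood libraries, since the labels do not say that they do. The deviations of same-numbered libraries correlated at -0.06, which with 2 libraries a group cannot decide whether they are paired. Alternatives were DESeq2 1.42.0, other scaling, no filter, the block, each library left out, stricter cell rules, doublets kept and cluster-based neutrophils. Another left out neutrophils with 2 or more C1q and Apoe UMIs, called C1q or Apoe cells below. Neutrophils below that limit were kept. Of the tumor neutrophils with a high hypoxia score, 50.3% and 53.0% held at least 1 such UMI, and of those with a low score 50.5% and 53.0%. Leaving out cells with shared barcodes was added after the data were seen. Exact intervals (95%) cover counting error only. The main edgeR fit of each comparison was also run on simulated counts, drawn with the spread that the same fit had estimated. DESeq2 and the other alternatives were not checked in this way, and the outcome is not given here.

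Members and lists were chosen with earlier results of these data known. Beside the members, pathway genes named were Nfe2l2, Keap1 and Bach1 and, in the tumor against blood comparison, the 8 largest changes in each direction among calls with at least 10 CPM in a group and no overlap of libraries; in other comparisons, 3 in each direction. The 2 most alike genes were named per member.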

Additional observations from a re-analysis of the deposited data

How the results depend on the processing

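Of 1678 values recomputed under alternatives, 32 changed sign, and in 31 of those the gene was called under neither setting. A further 100 values lost their call and 26 gained one. Other values moved in size, among them counts given below. In the tumor against blood comparison the 6 higher and 2 lower members kept their direction and call in every alternative run; Gclm, never called, was at 0.010 with no filter, 0.00090 and 0.12 at 2% and 5% of UMIs, 0.045 with doublets kept, 0.24 without C1q or Apoe cells, 0.22 in neutrophil-like clusters and -0.25 to 0.18 with a library left out.

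For CD45+ neutrophils against other cells, 1772 genes and 2 members were higher and 1417 genes and 1 member lower without the replicate block; 1998 genes were higher at 5% of UMIs, 1831 lower under DESeq2, and Gclc was at -0.22 at 5% of UMIs. edgeR's RLE scaling put the median of all genes at -0.06, against -0.16 with TMM. Of the calls, 58.9% were higher under DESeq2, against 45.4% in the edgeR fit; for CD45+ against sorted neutrophils this was 51.0% against 64.4%, and by score 69.7% against 55.0% (hypoxia), 76.5% against 57.9% (NF-kB) and 67.8% against 53.4% (stress).

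For CD45+ against sorted tumor neutrophils, counts depended strongly on the setting. Genes higher were 1271 with no filter, 0 and 2 at 2% and 5% of UMIs, 2415 with doublets kept, 13 without C1q or Apoe cells, 1 in neutrophil-like clusters, 33 without shared barcodes and 34 to 1067 with a library left out. Genes lower were 571 under DESeq2, 1255 with no filter, 508 with the replicate block, 0 at 2% and at 5% of UMIs, 2163 with doublets kept, 0 without C1q or Apoe cells, 0 in neutrophil-like clusters, 1 without shared barcodes and 4 to 729 with a library left out. At an unadjusted p of 0.05 edgeR gave 1009 and 656 genes at 2% and 5% of UMIs, 998 without C1q or Apoe cells and 973 in neutrophil-like clusters. Members higher were 0 at 2% and 5% of UMIs, 2 with doublets kept, 0 in each of the other cell selections and 0 to 1 with a library left out; members lower were 2 under DESeq2, with no filter and with doublets kept, 1 with the replicate block and 0 to 1 with a library left out. Sign changes at 2% of UMIs, at 5%, without C1q or Apoe cells and in neutrophil-like clusters were: Txnrd1 0.38, 0.35, 0.35 and 0.43; Gclc -0.19, -0.56, -0.023 and -0.058. At the last 3 of these settings Gclm was -0.54, -0.84 and -0.079 and Srxn1 -0.58, -0.72 and -0.36. With doublets kept Gclc was -0.38 and Gpx4 0.14. With a library left out, ranges were -0.14 to 0.069 (Txnrd1), -0.11 to 0.31 (Gclc), -0.14 to 0.23 (Srxn1) and -0.14 to 0.047 (Gpx4).

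For the score groups, DESeq2 gave 677 genes lower by hypoxia, 605 higher and 186 lower by NF-kB, 1584 higher and 752 lower by stress, and 78 higher and 115 lower by granule score. Without the replicate block these were 262 higher and 69 lower by NF-kB, 1230 lower by stress, and 90 higher and 160 lower by granule score. With no filter 1628 were higher and 1240 lower by stress. At 5% of UMIs 767 were higher by NF-kB and 322 lower by granule score, which had 209 higher and 340 lower with doublets kept and 329 lower without C1q or Apoe cells. Member counts changed to 5 lower by hypoxia without shared barcodes; 2 lower by NF-kB with doublets kept and 0 without C1q or Apoe cells or at 5% of UMIs; 1 higher by stress under DESeq2, no filter, no replicate block and no shared barcodes, with 2 lower under DESeq2 and no block; and 1 lower by granule score under DESeq2, no block, no C1q or Apoe cells and 5% of UMIs. Gclc by NF-kB was at 0.079 with cells cut at the median score and 0.049 at 5% of UMIs.

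Shares of cells with a UMI depend on depth. Thinned to 2000 UMIs and unthinned, Sod2 was in 26.9% and 38.1% of tumor and 3.47% and 6.26% of blood neutrophils, Txnrd1 in 28.9% and 42.3% against 5.26% and 9.65%, Slc7a11 in 76.6% and 82.9% against 37.9% and 51.1%, Gpx1 in 23.4% and 34.0% against 64.9% and 79.5%, and Gpx4 in 26.9% and 41.2% against 53.7% and 70.1%. For tumor and blood the block is not known to be a pairing: with it 4591 genes were higher and 4248 lower. With 2 libraries a group, causes of these changes were not tested.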

Other observations

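Of 86 pathway genes tested between CD45+ neutrophils and the other cells of their libraries, 27 were higher and 27 lower in the neutrophils, beside 18.9% higher and 22.8% lower over all genes. The iron exporter gene Slc40a1 had 94.6 and 65.3 CPM in CD45+ neutrophils, against 7.75 and 6.96 in the other cells, a log2 fold change of 3.63. Osgin1, an oxidative stress-induced gene, had 83.8 and 43.2 in the neutrophils against 10.1 and 6.22 in the other cells (3.15), and Txnip, an inhibitor of thioredoxin, had 257 and 512 against 51.2 and 71.8 (2.82). Lower were Prdx2, a cytosolic peroxiredoxin, with 62.8 and 71.5 against 229 and 233 (-1.54), and the desaturase Scd2 (-1.52). Alox15 was lower too (-3.34), with 2.17 and 1.47 CPM in the neutrophils against 7.99 and 26.6 in the other cells. Only 3 and 5 Alox15 UMIs came from the neutrophils.

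Between CD45+ and sorted tumor neutrophils 5 of 78 pathway genes tested were higher and 4 lower, beside 3.94% and 2.18% over all genes. The examples by the same rule were the peroxide enzymes Cat (log2 fold change 1.52) and Prdx4 (1.47) and Scd2 (1.36) among the higher, and Maff (-1.06), the glutathione transferase Mgst1 (-0.99) and glutathione reductase Gsr (-0.87) among the lower. Gsr had 1236 and 1051 CPM in CD45+ neutrophils, against 1768 and 1516 in sorted ones. None of these calls held at 2% of UMIs, where 0 of all genes were called in either direction. At 5% of UMIs, in neutrophil-like clusters and without C1q or Apoe cells, 0 genes were called lower. Macrophage markers also differed, at 9323 and 13816 CPM in CD45+ neutrophils against 5360 and 4162 in sorted ones. Their part was not tested.

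In the tumor neutrophils ranked by hypoxia score, 26 of 75 pathway genes tested were higher in the score-high group and 10 lower, beside 20.1% and 16.5% over all genes. Tfrc had 103 and 123 CPM in the score-high group, against 13.7 and 13.9 in the score-low group (3.35), and Hmox1 had 721 and 801 against 130 and 121 (2.91). Maff was higher too (1.76), and Taldo1 (-1.64), the lipoxygenase Alox5 (-1.22) and Ggt5 (-1.21) were lower. The stress score gave 26 higher and 20 lower of 75, beside 23.3% and 20.3% over all genes, with Tfrc (2.42), Hmox1 (2.40) and Mafk (2.17) higher and Alox5 (-1.46), Mgst1 (-1.25) and Taldo1 (-1.02) lower. By NF-kB score 15 of 74 were higher and 9 lower, beside 10.6% and 7.68% over all genes, with Txnip (1.03), Mgst1 (0.92) and Alox5 (0.76) higher and Scd2 (-1.31), Prdx2 (-0.99) and Prdx4 (-0.98) lower. By granule score in blood 6 of 67 were higher and 7 lower, beside 3.87% and 5.5% over all genes, with Mgst2 (1.86), Mgst1 (0.76) and Tkt (0.75) higher and Gss (-1.40) and Ggct (-1.06) lower; Alox15 was called lower too, from 1 cell in each library. All these calls are edgeR calls at an adjusted p of 0.05 over all genes tested.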
